A study of Rattus norvegicus with 6 samples.

Results

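The genes examined belong to actin filaments and the proteins that bind or pull on them, in rat liver. They were picked by symbol as Actb, Actg1, Actg2, Myh9, Myl9, Cnn1, Cnn2, Tpm1, Tpm2 and Tpm4, and each symbol matched a gene, so 10 of the 19616 genes with deposited values were taken. RNA came from the livers of 6 male SD rats, 3 in the control group (CL5, CL6 and CL7) and 3 in the hepatic fibrosis group (FL2, FL5 and FL12). The FL rats had received the hepatocyte poison CCl4 (carbon tetrachloride) mixed with olive oil by injection into the abdominal cavity, at 2 mL/kg and 2 times a week over 5 weeks. The CL rats received olive oil alone in the same volume. Their ages were not given, and whole liver was sequenced after removal of ribosomal RNA, so each value mixes all cell types of the organ.

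Actin is the protein of the thin filaments that give a cell its shape. Its genes fall into cytoplasmic forms made in nearly all cells and muscle forms made mainly in contractile cells. Myosin II pulls on these filaments once its light chains are phosphorylated. Tropomyosins lie along the filament and calponins bind it, and both control how myosin and other proteins reach it. In the liver, hepatic stellate cells that turn into myofibroblasts after injury gain contractile filaments rich in smooth muscle actin, whereas the muscle of vessel walls carries such filaments at all times.

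Expression was given as FPKM, which corrects the fragments counted on a gene for transcript length and for the size of the library. Values of single rats are listed in the order CL5, CL6, CL7 and FL2, FL5, FL12 wherever the rats are not named. FPKM summed to 309425, 340467 and 315259 in CL5, CL6 and CL7, and to 309226, 272350 and 272110 in FL2, FL5 and FL12. The number of reads behind a value is unknown, so errors are the spread over the 3 rats of a group. FL2 stood apart from FL5 and FL12 for most of these genes, and it was the lowest FL rat in 9 of the 10 (90%), against 53.8% of all genes tested. Fewer cells of a type and less RNA per cell cannot be told apart in whole liver.

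The groups were compared with limma on log2(FPKM + 0.1) for the 14864 genes that averaged 0.1 FPKM or more, and all 10 genes could be tested. Each log2 fold change is of the FL over the CL group and is given with limma's moderated standard error (SE). A gene was called differentially expressed (a DEG) at an adjusted p under 0.05 (Benjamini-Hochberg) with a fold change of at least 2. Only Cnn2 was a DEG, and it was higher in the FL group. This is 1 of 10 genes, where 9.29% of all genes tested were called higher. Without a limit on the fold change, Actb, Cnn2, Tpm1 and Tpm4 were higher, which is 4 of 10 against 16.9% of all genes tested. All 3 FL rats lay above all 3 CL rats for 5 of the 10 (Actb, Myh9, Cnn2, Tpm1 and Tpm4), against 35.7% of all genes tested. None of the 10 was called lower by limma, where 139 of all 14864 genes tested were. The 5 genes with an unadjusted p under 0.05 were all higher in the FL group. The share of all genes at that unadjusted threshold was not counted, here or for the lists below.

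By limma, the log2 fold change was above 0 for all 10 genes, except that Myh9 fell below 0 with quantile normalization. Its median over the 10 was 0.85, against 0.29 over all genes tested, a distance of 0.56. That distance was 0.34 without FL5 and 0.89 without FL2. Scaling between rats moved the median of all genes to 0.08 (median scaling) or to -0.04 (quantile normalization), and the 10 genes then lay 0.55 and 0.65 above it. Without FL2, 4 of the 10 were DEGs (Cnn2, Myl9, Tpm1 and Tpm4), where 12.3% of all genes tested were called higher. With any other rat left out, Cnn2 was the only one of the 10 at an adjusted p under 0.05.

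**Figure D1:**
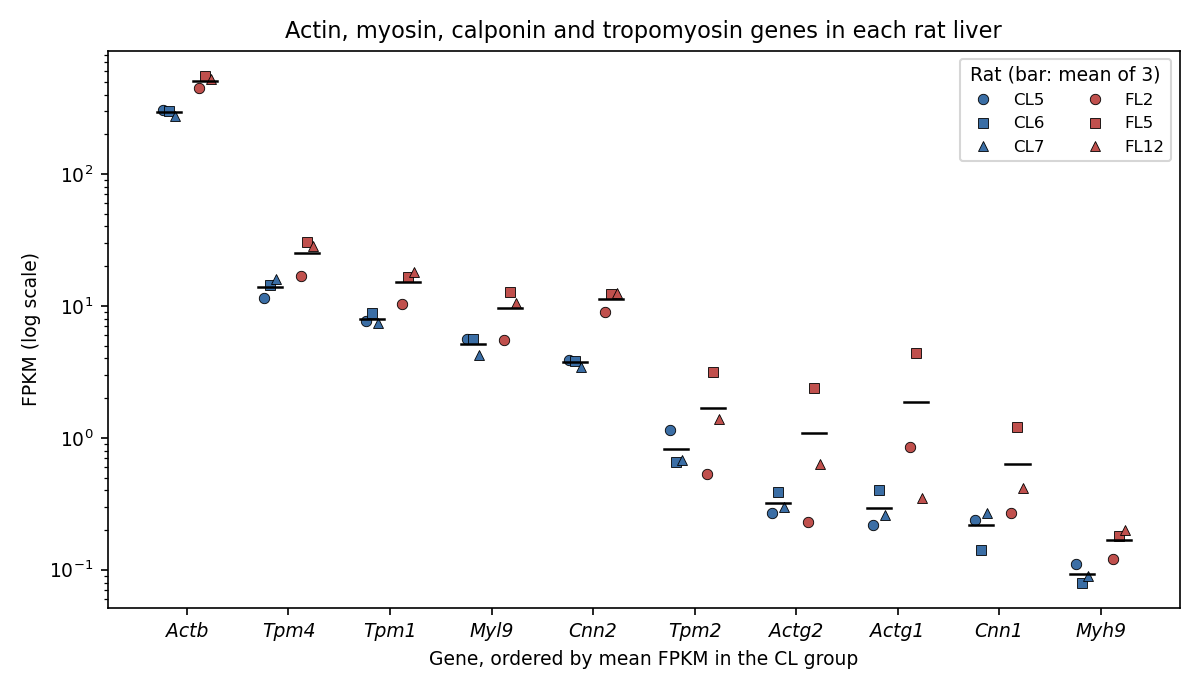
FPKM (log scale) of the 10 genes in each of 3 CL rats (blue) and 3 FL rats (red), with a bar at the mean of each group and genes ordered by their mean in the CL group. Actb is the most abundant in every rat, the 3 FL rats of Cnn2 lie clear of the CL rats, and FL5 lies far above FL2 and FL12 for Actg1.

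The levels spread over more than 3 orders of magnitude. Compared per length of transcript, mean FPKM in the CL group placed Actb first, followed by Tpm4, Tpm1, Myl9, Cnn2, Tpm2, Actg2, Actg1, Cnn1 and Myh9. Neighbours in this order were separated in all 3 CL rats except for Actg2 beside Actg1 and Actg1 beside Cnn1, whose ranges overlapped. In the FL group Cnn2 stood before Myl9, and Actg1 before Tpm2 and Actg2. Most neighbours then overlapped, apart from Actb above Tpm4, Myl9 above Actg1 and Cnn1 above Myh9. The FL rats also differed more among themselves. The coefficient of variation ran from 6.24% (Actb) to 33.9% (Tpm2) over the CL rats, and from 11.03% (Actb) to 118% (Actg1) over the FL rats. In total the 10 genes held 337.7, 335.8 and 305.5 FPKM in the CL rats against 489.1, 636.1 and 601.2 FPKM in the FL rats, most of it Actb.

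Actb (ENSRNOG00000034254, chromosome 12) encodes beta-actin, the cytoplasmic actin that is often used as a reference gene. It read 307.2, 301.4 and 272.9 FPKM in the CL rats against 445.4, 552.2 and 528.8 FPKM in the FL rats. The groups did not overlap, and the lowest FL rat, FL2, exceeded the highest CL rat, CL5. The means were 294 ± 18.3 and 509 ± 56.1 FPKM (SD, n = 3 rats each), a ratio of 1.73. Limma put the log2 fold change at 0.79 (SE 0.17, 95% interval 0.39 to 1.18, adjusted p = 0.0198), so Actb passed the p threshold but not the limit of 2-fold. The adjusted p ran from 0.00875 to 0.0886 over the alternatives. It missed the threshold with median scaling (0.0676) and with any 1 rat other than FL2 left out (0.0522 to 0.0886).

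A list of other genes used as references was read beside Actb. Of 14 such genes, 2 had an adjusted p under 0.05, both higher in the FL group, and none reached a DEG call by limma, with 6 at an unadjusted p under 0.05. The 2 were Rplp0 (log2 fold change 0.99, SE 0.16, adjusted p = 0.00818) and Rpl13a (0.80, SE 0.13, adjusted p = 0.00817), both of which encode proteins of the large ribosomal subunit. Rplp0 was a DEG with quantile normalization, without CL5 and without FL5. The median log2 fold change of the 14 was 0.23, close to the 0.29 of all genes tested. Tbp, the TATA-binding protein gene, read 2.62, 2.89 and 2.84 FPKM in the CL rats against 2.97, 3.61 and 2.29 FPKM in the FL rats. Its groups overlapped, with a log2 fold change of 0.06 (SE 0.19, adjusted p = 0.833). Gapdh, a glycolytic enzyme gene, read only 1.09, 1.17 and 0.61 FPKM in the CL rats against 2.88, 1.90 and 0.53 FPKM in the FL rats. Rplp0, Rpl13a, Tbp and Gapdh were picked from the list after their values were seen.

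Actg1 (ENSRNOG00000036701, chromosome 10) encodes gamma-actin, the other cytoplasmic actin. It read 0.22, 0.40 and 0.26 FPKM in the CL rats against 0.85, 4.42 and 0.35 FPKM in the FL rats. FL5 was high, FL2 was above the CL rats, and FL12 lay among them, so the groups overlapped. On the log2 scale, the difference between the groups was 1.69 (SE 0.74, 95% interval -0.02 to 3.40, adjusted p = 0.145). Without FL5 it was 0.76 (adjusted p = 0.294, and 0.0551 to 0.391 over the alternatives). Only uniquely mapped reads had been counted, and both Actg1 and Gapdh have processed pseudogenes with nearly the same sequence. The part of unique mapping in these low values was not tested.

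Actg2 (ENSRNOG00000029401, chromosome 4) encodes the gamma form of smooth muscle actin, known from the gut wall. It read 0.27, 0.39 and 0.30 FPKM in the CL rats against 0.23, 2.40 and 0.63 FPKM in the FL rats. FL5 and FL12 were above all CL rats and FL2 was below them. The fitted log2 fold change was 1.02 (SE 0.65, 95% interval -0.49 to 2.53, adjusted p = 0.297). It was 0.24 without FL5 (adjusted p = 0.746) and 1.70 without FL2 (adjusted p = 0.0559), with adjusted p-values from 0.0559 to 0.746 over the alternatives.

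Acta2, the smooth muscle actin gene used as a marker of myofibroblasts, was more abundant than Actg1 and Actg2 in each rat. It read 3.85, 2.62 and 2.68 FPKM in the CL rats against 3.87, 17.3 and 9.59 FPKM in the FL rats. FL2 was barely above CL5, although the groups did not overlap. Its log2 fold change was 1.496 (SE 0.47, adjusted p = 0.0609), and without FL2 it was a DEG (adjusted p = 0.00607, and 0.00607 to 0.172 over the alternatives). Within the summed FPKM of the actins in the table, Actb made up 98.7% ± 0.160 in the CL group and 97.6% ± 1.60 in the FL group. Acta2 made up 1.02% ± 0.193 and 1.88% ± 1.08, with its highest share in FL5 (3.00%). Actg1 and Actg2 reached at most 0.767% and 0.416%, both in FL5. The skeletal muscle actin Acta1 was at 0 in CL6, FL2 and FL12 and at most 0.12 FPKM elsewhere. No rows of the table carry the symbols Actc1 or Actbl2.

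Myh9 (ENSRNOG00000004860, chromosome 7) encodes the heavy chain of non-muscle myosin IIA, the motor of contraction in cells outside muscle. It had the lowest values of the 10 genes, 0.11, 0.08 and 0.09 FPKM in the CL rats against 0.12, 0.18 and 0.20 FPKM in the FL rats. The groups did not overlap, but FL2 and CL5 differed by the last decimal that the table holds. By limma, the log2 fold change was 0.45 (SE 0.38, 95% interval -0.42 to 1.33, adjusted p = 0.418), and it became -0.12 with quantile normalization (adjusted p = 0.849, where the alternatives ran from 0.115 to 0.849). At levels near 0.1 FPKM the added 0.1 draws fold changes toward 0.

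A separate gene of the table, LOC100911597 (ENSRNOG00000049236, chromosome 7), is described as myosin-9-like. It read 0.33, 0.41 and 0.28 FPKM in the CL rats against 0.42, 0.41 and 0.51 FPKM in the FL rats, above Myh9 in each rat. Its groups touched at 0.41 FPKM (log2 fold change 0.32, SE 0.28, adjusted p = 0.44). Over the alternatives its log2 fold change ran from -0.28 to 0.43, so its direction turned as well. With both genes summed, an alternative chosen after the data were seen, the log2 fold change of Myh9 was 0.42 (adjusted p = 0.272). LOC100911597 alone averaged 0.34 FPKM in the CL group, above Actg2 at 0.32 FPKM. The last place of Myh9 in that group thus rests on Myh9 being counted alone. The part of unique mapping in the low values of Myh9 was not tested.

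Myl9 (ENSRNOG00000020246, chromosome 3) encodes a regulatory light chain of myosin II, the subunit that is phosphorylated to start contraction. It read 5.60, 5.63 and 4.25 FPKM in the CL rats against 5.47, 12.8 and 10.5 FPKM in the FL rats. FL5 and FL12 were well above the CL rats, and FL2 lay among the CL rats. The means were 5.16 ± 0.788 and 9.59 ± 3.75 FPKM (SD, n = 3 rats each). Limma put the log2 fold change at 0.81 (SE 0.30, 95% interval 0.13 to 1.49, adjusted p = 0.0931). Without FL2 it was 1.16, a DEG with an adjusted p of 0.00743, where the alternatives ran from 0.00743 to 0.257.

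A list of other myosin II genes included 1 DEG among 6 tested, and 2 had an adjusted p under 0.05 (median log2 fold change 0.44). The DEG was Myh10, the heavy chain of non-muscle myosin IIB. It read 0.82, 0.96 and 0.76 FPKM in the CL rats against 1.95, 5.72 and 6.23 FPKM in the FL rats. Every FL rat was above every CL rat, and FL2 was again the lowest of its group. On the log2 scale, the difference between the groups was 2.16 (SE 0.40, adjusted p = 0.0119), and the call was missed only without CL7 (adjusted p = 0.0503, where the alternatives ran from 8.44e-04 to 0.0503). Myl12a, a regulatory light chain of non-muscle myosin, had a log2 fold change of 0.60 (SE 0.14, adjusted p = 0.0237, and 0.00796 to 0.0895 over the alternatives).

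The make-up of the myosin II heavy chains is given as a description, with no test. Myh10 took 26.2%, 31.6% and 29.6% of their sum in the CL rats, and 48.3%, 58.6% and 63.1% in the FL rats. The smooth muscle chain Myh11 took 42.8% ± 5.07 in the CL group and 27.5% ± 1.88 in the FL group, although its own log2 fold change was 0.67 (SE 0.35, adjusted p = 0.215). Without FL2, Myh11 was a DEG (adjusted p = 0.0123, and 0.0123 to 0.712 over the alternatives, with log2 fold changes of 0.21 to 1.09). A further chain, Myh14, took 24.9% ± 2.98 in the CL group and 13.5% ± 7.60 in the FL group. The share of Myh14 was 22.3% in FL2, 9.84% in FL5 and 8.50% in FL12, while its own log2 fold change was 0.28. Myh9 held 3.22% ± 0.506 and 2.28% ± 0.605, in a sum that does not count LOC100911597. The sum itself was 3.13, 3.04 and 2.57 FPKM in the CL rats against 4.04, 9.76 and 9.88 FPKM in the FL rats.

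Cnn2 (ENSRNOG00000043044, chromosome 7) encodes a calponin of non-muscle and smooth muscle cells, which binds actin filaments and is known from adherent cells and macrophages. It rose from 3.88, 3.85 and 3.44 FPKM in the CL rats to 8.95, 12.4 and 12.5 FPKM in the FL rats. The CL rats were close together, and the lowest FL rat, FL2, stood at more than 2 times the highest CL rat. The means were 3.72 ± 0.246 and 11.3 ± 2.01 FPKM (SD, n = 3 rats each), a ratio of 3.03. The fitted log2 fold change was 1.56 (SE 0.16, 95% interval 1.19 to 1.92, adjusted p = 0.00213). Cnn2 was a DEG under each alternative tried, with log2 fold changes from 1.29 to 1.71 and adjusted p-values from 0.0011 to 0.0157.

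Cnn1 (ENSRNOG00000027736, chromosome 8) encodes the basic calponin of differentiated smooth muscle, which inhibits the ATPase of myosin. It read 0.24, 0.14 and 0.27 FPKM in the CL rats against 0.27, 1.21 and 0.42 FPKM in the FL rats. FL2 equalled CL7, and FL5 was the highest. By limma, the log2 fold change was 1.02 (SE 0.49, 95% interval -0.11 to 2.15, adjusted p = 0.175), and without FL5 it was 0.49 (adjusted p = 0.446, and 0.0696 to 0.588 over the alternatives).

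Of the summed FPKM of the 3 calponins, Cnn2 made up 13.2%, 14.5% and 17.0% in CL5, CL6 and CL7, and 28.3%, 23.2% and 22.4% in FL2, FL5 and FL12. These shares did not overlap, and the share in FL2 was the highest although its Cnn2 level was the lowest of the FL group. Cnn3, the acidic calponin, made up 84.2% ± 2.26 and 74.1% ± 3.04, and Cnn1 0.894% ± 0.410 and 1.29% ± 0.846. The level of Cnn3 itself was 21.4 ± 4.46 FPKM (CL) against 35.0 ± 11.01 FPKM (FL), with a log2 fold change of 0.67 (SE 0.26, adjusted p = 0.111).

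Tpm1 (ENSRNOG00000018184, chromosome 8) encodes alpha-tropomyosin, which is made as muscle and non-muscle forms by alternative splicing. The table gives a value per gene and does not separate these forms. Tpm1 read 7.66, 8.78 and 7.38 FPKM in the CL rats against 10.4, 16.6 and 18.2 FPKM in the FL rats. The groups did not overlap, and FL2 was nearest to the CL rats. The means were 7.94 ± 0.741 and 15.1 ± 4.14 FPKM (SD, n = 3 rats each). Limma put the log2 fold change at 0.88 (SE 0.21, 95% interval 0.39 to 1.36, adjusted p = 0.0267), under the limit of 2-fold. Without FL2 it was 1.13, a DEG (adjusted p = 0.00358, and 0.00358 to 0.0963 over the alternatives). The p threshold was missed with median scaling (0.0557), with quantile normalization (0.0733), with limma without trend (0.0581) and with any rat other than FL2 left out (0.0555 to 0.0963).

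Tpm4 (ENSRNOG00000015496, chromosome 16) encodes a tropomyosin of non-muscle cells. It read 11.4, 14.4 and 16.0 FPKM in the CL rats against 16.9, 30.7 and 28.3 FPKM in the FL rats. The FL rats were above the CL rats, with a narrow gap between CL7 and FL2. The means were 13.9 ± 2.30 and 25.3 ± 7.39 FPKM (SD, n = 3 rats each). On the log2 scale, the difference between the groups was 0.82 (SE 0.24, 95% interval 0.28 to 1.37, adjusted p = 0.0466). Without FL2 it was 1.09, a DEG (adjusted p = 0.0072, and 0.0072 to 0.144 over the alternatives). The p threshold was missed with a pseudocount of 1 (0.0509), without a filter on low values (0.07), with limma without trend (0.0894), with either scaling (0.126 and 0.124) and with any rat other than FL2 left out (0.0895 to 0.144).

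Tpm2 (ENSRNOG00000016731, chromosome 5) encodes beta-tropomyosin, typical of muscle cells and fibroblasts. It read 1.15, 0.65 and 0.68 FPKM in the CL rats against 0.53, 3.18 and 1.38 FPKM in the FL rats. FL2 was below all CL rats, and FL5 and FL12 were above them. The fitted log2 fold change was 0.69 (SE 0.55, 95% interval -0.57 to 1.95, adjusted p = 0.396). It was 0.10 without FL5 (adjusted p = 0.897) and 1.29 without FL2 (adjusted p = 0.058), with adjusted p-values from 0.058 to 0.897 over the alternatives.

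The shares of the tropomyosins within their family differed between the groups by less than the spread between rats, whereas their sum did not overlap. With Tpm3 included, they summed to 33.6, 36.3 and 35.2 FPKM in the CL rats, and to 46.0, 73.4 and 67.0 FPKM in the FL rats. Tpm4 took 39.7% ± 5.68 in the CL group and 40.2% ± 3.11 in the FL group, and Tpm1 22.7% ± 1.61 and 24.1% ± 2.65. Tpm3 took 35.2% ± 4.12 and 33.1% ± 5.82, and Tpm2 2.38% ± 0.904 and 2.52% ± 1.64. Tpm3 itself read 13.3, 12.4 and 11.1 FPKM in the CL rats against 18.3, 22.9 and 19.1 FPKM in the FL rats. Its groups did not overlap (log2 fold change 0.70, SE 0.13, adjusted p = 0.0117, and 0.0103 to 0.0513 over the alternatives).

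**Figure D2:**
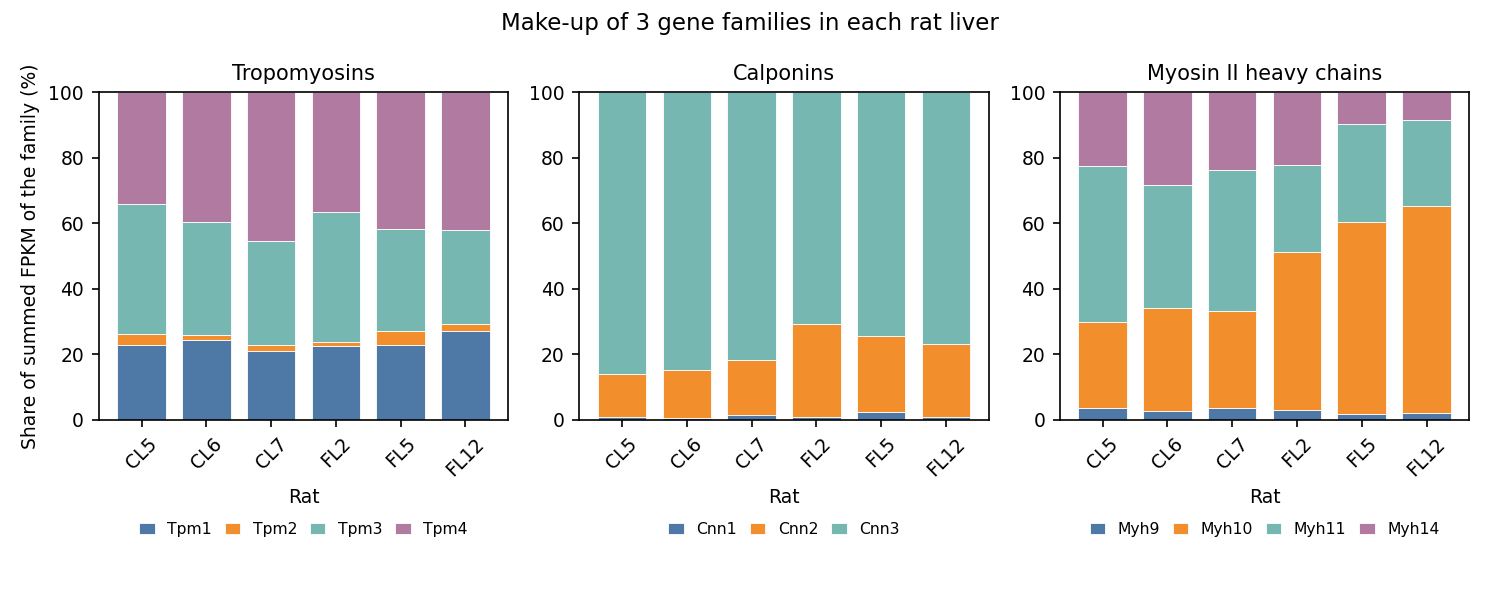
Share (%) of each gene in the summed FPKM of its family, for tropomyosins, calponins and myosin II heavy chains, with 1 bar for each of 3 CL and 3 FL rats. Cnn2 takes 13.2% to 17.0% of the calponins in the CL rats and 22.4% to 28.3% in the FL rats, and Myh10 takes 26.2% to 31.6% and 48.3% to 63.1% of the myosin heavy chains.

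Within each rat, 8 ratios between genes were formed from FPKM + 0.1 and compared with a two-sided exact permutation test, where 3 rats against 3 allow no p under 0.1. With all 6 rats and the pseudocount of 0.1, none reached that value and all overlapped between the groups, with each adjusted p at 1. Cnn1 over Cnn2 had a mean log2 ratio of -3.62 ± 0.396 in the CL group and -4.15 ± 0.780 in the FL group (difference -0.54, exact permutation p = 0.4). That difference was -0.99 without FL5, -0.31 without FL2, -0.32 without FL12 and -0.31 with a pseudocount of 0.01. With a pseudocount of 1 it was -0.98 at the smallest p the design allows (exact permutation p = 0.1, unadjusted). Actg1 over Actb stood at -9.57 ± 0.336 and -8.67 ± 1.64 (difference 0.90, exact permutation p = 0.5). Its difference was 0.03 without FL5, 1.67 without FL12 and 0.10 with a pseudocount of 1. Actg2 over Actb stood at -9.46 ± 0.220 and -9.23 ± 1.33 (difference 0.23, exact permutation p = 0.9). For Tpm1 over Tpm4 the log2 ratio was -0.79 ± 0.276 and -0.74 ± 0.129 (difference 0.06, exact permutation p = 0.8). The light chain Myl9 over the heavy chain Myh9 gave 4.76 ± 0.238 and 5.11 ± 0.433 (difference 0.35, exact permutation p = 0.3), and the difference was 0.06 with a pseudocount of 0.01 and 0.63 with a pseudocount of 1. The differences of the other 3 ratios were -0.13 (Tpm2 over Tpm4), 0.19 (Tpm1 over Tpm2) and 0.0025 (Cnn1 over Actg2).

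**Figure D3:**
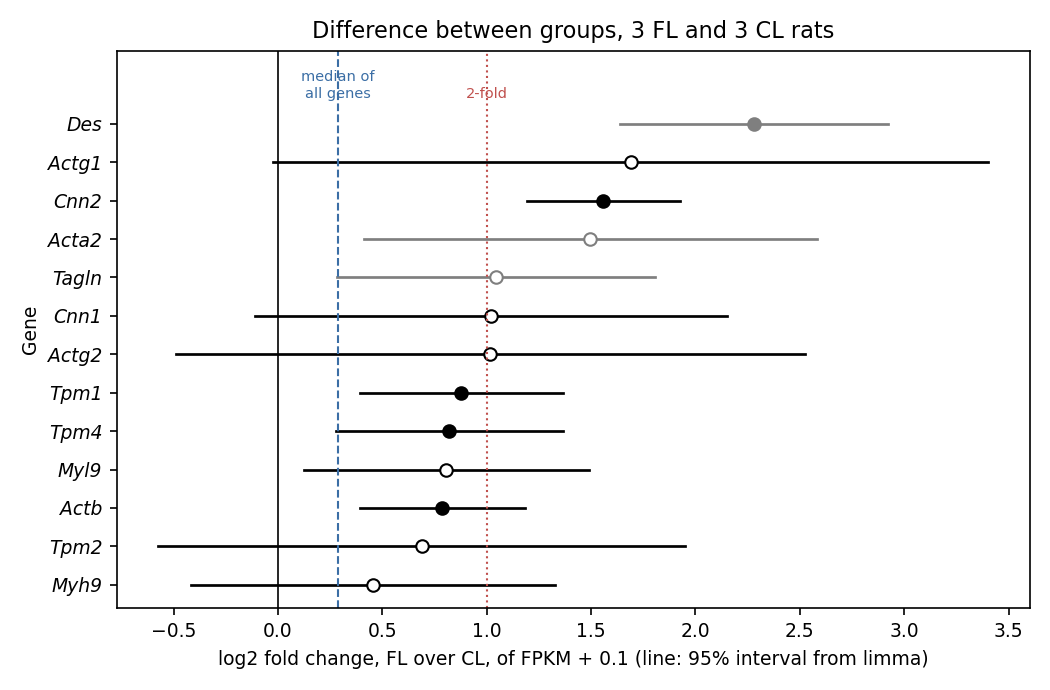
Log2 fold change of the FL over the CL group with its 95% interval from limma, for the 10 genes (black) and for Acta2, Tagln and Des (grey), over 3 FL and 3 CL rats. Filled points have an adjusted p under 0.05, the dashed line marks the median of all genes tested (0.29) and the dotted line a 2-fold change. Cnn2 and Des exceed the dotted line with their whole intervals.

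Tagln and Des, which like Acta2 are expressed in stellate cells and smooth muscle, were read beside the 10 genes. Tagln, the gene of the actin-binding protein transgelin, read 13.1, 12.99 and 12.4 FPKM in the CL rats against 14.8, 42.7 and 29.4 FPKM in the FL rats. Its groups did not overlap, with FL2 close to the CL rats (log2 fold change 1.04, SE 0.33, adjusted p = 0.0621). Without FL2 it was a DEG (adjusted p = 0.00376, where the alternatives ran from 0.00376 to 0.165). Des, the gene of the intermediate filament protein desmin, read 0.83, 1.06 and 1.58 FPKM in the CL rats against 4.18, 7.16 and 6.60 FPKM in the FL rats. All FL rats were clear of the CL rats, and Des was a DEG (log2 fold change 2.28, SE 0.28, adjusted p = 0.00394). Col1a1, the gene of a type I collagen chain, read 2.12, 3.77 and 2.12 FPKM in the CL rats against 17.0, 101.2 and 73.7 FPKM in the FL rats. It was a DEG as well (log2 fold change 4.24, SE 0.60, adjusted p = 0.00519), again with FL2 the lowest and FL5 the highest of the FL rats.

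Other genes of the actin cytoskeleton were read in 7 lists of 86 genes, of which 82 were in the table and 78 could be tested. Of these 78, 12 were DEGs higher in the FL group and 29 had an adjusted p under 0.05, again all higher, where 9.29% and 16.9% of all genes tested were higher by these rules. None was called lower by limma, where 139 of all 14864 genes tested were, and 90.9% of the calls over all genes were higher. At an unadjusted p under 0.05 there were 51 higher and 2 lower, the latter being Myl6b and Pls3, with no count over all genes to set beside them. The median log2 fold change of the 78 was 0.48, against 0.29 for all genes tested. All FL rats were above all CL rats for 51 (against 35.7% of all genes tested) and below them for 2, for which the share over all genes was not counted. FL2 was the lowest FL rat in 80.8% of the 78 genes. The number called higher was 20 without FL2, 7 without CL7, 8 without FL5 and 7 with quantile normalization, under which 1 gene, Myl6b, was called lower.

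Among 27 tested genes of filament assembly, 5 were DEGs and 12 had an adjusted p under 0.05 (median log2 fold change 0.42). Tmsb10, the gene of a thymosin that holds free actin monomers, rose from 3.87, 5.58 and 4.59 FPKM in the CL rats to 17.5, 25.3 and 17.4 FPKM in the FL rats. Unlike most of the genes above it was as high in FL2 as in FL12, with a log2 fold change of 2.07 (SE 0.19, adjusted p = 0.00165). Capg, a protein that caps filament ends in macrophages and other cells, had a log2 fold change of 2.07 (SE 0.21, adjusted p = 0.00229). Diaph3, a formin that elongates filaments, went from 0.05, 0.07 and 0.16 FPKM to 0.30, 1.37 and 0.86 FPKM (log2 fold change 2.14, SE 0.51, adjusted p = 0.027). Its call was missed when any rat other than FL2 was left out, with a pseudocount of 1 and with quantile normalization (adjusted p up to 0.0921). The other 2 DEGs were Was and Coro1a, both known mainly from blood cells, with log2 fold changes of 1.53 and 1.301. Was fell under the limit of 2-fold with a pseudocount of 1, and Coro1a with quantile normalization.

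Among 18 genes of crosslinkers and links to adhesions, 2 were DEGs and 7 had an adjusted p under 0.05 (median 0.58). Lcp1, the plastin of white blood cells, read 4.86, 4.84 and 4.0 FPKM in the CL rats against 12.4, 20.6 and 19.4 FPKM in the FL rats. The groups were well apart (log2 fold change 1.88, SE 0.20, adjusted p = 0.00256). Flna, the gene of filamin A, had a log2 fold change of 1.12 (SE 0.30, adjusted p = 0.0381). Its call was missed when any rat other than FL2 was left out, with both scalings, without a filter on low values and with limma without trend (adjusted p up to 0.128). Pls3, a plastin of other tissues, read 30.01, 30.7 and 28.8 FPKM in the CL rats against 14.6, 24.3 and 21.5 FPKM in the FL rats (log2 fold change -0.60, SE 0.18, adjusted p = 0.0562). Its groups did not overlap. Over the alternatives limma's adjusted p ran from 0.0192 to 0.136 and the log2 fold change from -0.82 to -0.39, short of 2-fold.

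Among 12 genes that control contraction, 2 were DEGs and 3 had an adjusted p under 0.05 (median 0.36). With either scaling, and without CL5, CL7 or FL5, 1 was a DEG. Mylk, the kinase of the myosin light chain, read 16.9, 15.9 and 13.8 FPKM in the CL rats against 16.9, 23.8 and 24.7 FPKM in the FL rats, with overlap (log2 fold change 0.47, adjusted p = 0.088).

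Among 10 further partners of the thin filament, 1 was a DEG and 3 had an adjusted p under 0.05 (median 0.64). The DEG was Lmod1, a leiomodin of smooth muscle that starts new filaments. It read 0.16, 0.15 and 0.17 FPKM in the CL rats against 0.30, 0.75 and 0.64 FPKM in the FL rats. The groups did not overlap, but the call (log2 fold change 1.28, SE 0.37, adjusted p = 0.0465) was missed when any rat other than FL2 was left out, with a pseudocount of 1, with both scalings and without a filter on low values (adjusted p up to 0.199). Cald1 and Smtn, which encode caldesmon and smoothelin of contractile cells, had log2 fold changes of -0.07 and 0.02 (adjusted p = 0.727 and 0.924).

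Serum response factor (SRF) and its cofactor MRTF-A, which is held in the cytoplasm by free actin monomers, control many actin and smooth muscle genes. Of 4 tested genes of this axis, 1 was a DEG and 2 had an adjusted p under 0.05 (median 0.49). The DEG was Fhl2, a LIM domain protein that binds SRF, with 0.65, 0.52 and 0.73 FPKM in the CL rats against 2.19, 4.35 and 5.35 FPKM in the FL rats. It was a DEG under each alternative tried (log2 fold change 2.39, SE 0.32, adjusted p = 0.0049). Srf read 2.48, 3.19 and 3.28 FPKM in the CL rats against 4.45, 4.16 and 3.75 FPKM in the FL rats, so that FL2 was its highest FL rat (log2 fold change 0.46, SE 0.16, adjusted p = 0.0808). Mkl1, the gene of MRTF-A, had a log2 fold change of 0.51 (SE 0.14, adjusted p = 0.0391, and 0.0284 to 0.603 over the alternatives). Myocd was below 0.1 FPKM on average and was not tested.

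Promoter windows from RefSeq (build GRCr8), 250 bases before to 50 after the start of a gene, were available for 8 of the 10 genes by symbol, in 9 windows since Myh9 has 2. Actb and Myl9 had none. The CArG box, the motif of 10 letters that SRF binds, was searched by its name alone, and since it reads as a CArG box on either strand, both strands were covered. It was present in the windows of Cnn2 and Actg1, and in 548 of all 33469 windows (1.64%). Of the list genes with a window, 4 of 74 held it (5.41%), namely Acta1, Actc1, Srf and Fhl2. The Cnn2 and Actg1 windows are shown because Cnn2 was the only DEG of the 10 and the other match lay in Actg1, which did not pass the test. The Cnn2 window is chr7:10370263-10370562 and the Actg1 window chr10:106120902-106121201, both on the minus strand and each spanning the start of its gene. The CArG box, in capitals, starts 71 bases before the start of Cnn2 (positions 10370374 to 10370383) and 90 bases before the start of Actg1 (positions 106121032 to 106121041). A match describes the letters only.
Cnn2: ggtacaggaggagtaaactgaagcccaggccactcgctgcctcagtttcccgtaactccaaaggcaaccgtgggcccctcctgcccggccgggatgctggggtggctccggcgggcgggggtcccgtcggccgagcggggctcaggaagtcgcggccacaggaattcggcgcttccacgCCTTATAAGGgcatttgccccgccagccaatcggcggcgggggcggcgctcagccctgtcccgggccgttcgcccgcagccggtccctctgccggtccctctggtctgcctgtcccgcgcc
Actg1: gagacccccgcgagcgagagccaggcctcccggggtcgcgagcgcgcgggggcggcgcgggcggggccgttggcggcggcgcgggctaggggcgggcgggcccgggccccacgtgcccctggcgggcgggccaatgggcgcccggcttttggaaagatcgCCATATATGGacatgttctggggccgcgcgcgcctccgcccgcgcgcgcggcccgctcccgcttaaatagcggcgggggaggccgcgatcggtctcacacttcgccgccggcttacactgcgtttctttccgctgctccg

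Markers of cell types that a whole liver can hold were read beside these genes. Of 10 markers of stellate cells or myofibroblasts, 5 were DEGs, all higher in the FL group (Col1a1, Lum, Col3a1, Des and Pdgfrb). Their FPKM summed to 88.6, 94.4 and 85.6 in CL5, CL6 and CL7, and to 206.6, 548.5 and 496.9 in FL2, FL5 and FL12, with Col3a1 the most abundant. The sum was lowest in FL2 and highest in FL5 among the FL rats, as for 6 of the 10 genes. Of 7 markers of vascular smooth muscle, which include Actg2 and Cnn1, only Lmod1 was a DEG. Their sum was 9.95, 10.7 and 10.4 FPKM in the CL rats against 10.2, 16.7 and 13.4 FPKM in the FL rats, with Smtn the most abundant. Markers of striated muscle were near 0, with sums of 0.34 to 0.67 FPKM over the 6 rats, with Tnnt3 the most abundant by mean in the CL group and Tnnt2 in the FL group, and Ckm, Acta1, Myh1 and Mylpf below 0.1 FPKM on average.

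Of 6 macrophage markers, 3 were DEGs (Marco, Cd68 and Csf1r), all higher in the FL group. Their sum was 93.2, 88.7 and 91.7 FPKM in the CL rats against 217.6, 194.2 and 119.4 FPKM in the FL rats, with Clec4f the most abundant by mean in the CL group, Marco in the FL group, and FL2 the highest rat. Cycling markers had 2 DEGs of 5 (Birc5 and Mki67) and summed to 2.39, 4.56 and 2.90 FPKM in the CL rats against 4.04, 18.4 and 15.7 FPKM in the FL rats, with Mki67 the most abundant by mean in both groups. Of 5 endothelial markers tested, 1 was a DEG (Vwf), and the sums were 61.3, 63.3 and 55.8 FPKM in the CL rats against 78.5, 69.0 and 75.01 FPKM in the FL rats, with Kdr the most abundant by mean in the CL group and Lyve1 in the FL group. Of 5 platelet and erythroid markers tested, 1 was a DEG higher in the FL group (Pf4, log2 fold change 1.73), whereas Hbb, Hba1 and Alas2 gave -0.88, -0.74 and -0.75, none of them a DEG by limma with all rats. The sums, with Hbb the most abundant in every rat, were 90.8, 154.8 and 111.2 FPKM in the CL rats against 125.5, 51.9 and 54.3 FPKM in the FL rats. The calls of Lum, Vwf, Birc5 and Mki67 were not kept under all alternatives, with adjusted p-values up to 0.0703, 0.0989, 0.0693 and 0.144, and the log2 fold change of Csf1r went down to 0.91. Calls gained without FL2 were Tat, Acta2, Tagln, Myh11, Cftr, Wt1, Top2a, Cdk1 and Ccnb1 (higher) and Hbb, Hba1 and Alas2 (lower, with log2 fold changes down to -1.21, -1.44 and -1.22). Timp1 was called higher without CL6 and Msln lower without FL12.

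None of the 7 hepatocyte, 5 cholangiocyte, 4 lymphocyte and 4 mesothelial markers tested was a DEG by limma with all rats, and 2, 1, 0 and 1 of them had an unadjusted p under 0.05, all higher in the FL group. Hepatocyte markers had a median log2 fold change of 0.0027, with the 2 being Apoa1 (0.73) and Tat (0.80). For 3 of the 7, namely Alb (-0.38, adjusted p = 0.804), Ttr (-0.63) and Hnf4a (-0.21), all FL rats were below all CL rats, and for 1, Apoa1, all were above. The share of all genes tested that lay below in this way was not counted. Limma's SE for Alb was 0.98, although its coefficient of variation was 3.13% over the CL rats and 2.31% over the FL rats. With the mean-dependent prior, the p-value of Alb thus does not measure the spread between rats alone. Over the alternatives the log2 fold change of Alb ran from -0.60 to 0.49, so its direction turned, whereas Ttr and Hnf4a stayed below 0. With Alb the most abundant in every rat, the 7 hepatocyte markers summed to 44425, 42112 and 42640 FPKM in the CL rats, and to 33176, 35519 and 34737 FPKM in the FL rats. Cholangiocyte markers, mostly Epcam, summed to 5.38, 7.75 and 5.58 FPKM in the CL rats and to 5.38, 8.06 and 11.3 FPKM in FL2, FL5 and FL12. Lymphocyte markers, with Nkg7 the most abundant by mean in both groups, lay between 1.13 and 2.13 FPKM in each rat, and mesothelial markers, with Msln the most abundant, between 0.97 and 4.58 FPKM. The mesothelial median log2 fold change was -0.71, with Msln at -1.01, Upk3b and Lrrn4 at -0.71 and Wt1 at 1.37. The part of each cell type in the levels of the 10 genes was not tested.

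The genes with the most similar profiles were sought among the 10535 that averaged 1 FPKM or more, by the Euclidean distance between log2(FPKM + 0.1) values centred on their mean over the 6 rats. Emilin1, a glycoprotein of elastic fibres (distance 0.110), and Eef2k, a kinase that slows protein synthesis (0.115), were among the nearest to Actb. Emilin1 read 7.89, 7.82 and 6.74 FPKM in the CL rats against 11.1, 13.4 and 12.6 FPKM in the FL rats. Cnn2 was nearest to Efemp2, a fibulin of the extracellular matrix (0.164), Itga4, an integrin subunit of white blood cells (0.174), and Aldh1a3 (0.201). Efemp2 read 1.17, 1.09 and 0.98 FPKM in the CL rats against 2.85, 3.68 and 4.20 FPKM in the FL rats. Each of these neighbours was higher in every FL rat than in any CL rat, which follows from their choice by likeness to Actb or Cnn2.

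Tpm1 was nearest to Hmcn1, a matrix protein gene (0.164), then Pdlim7, which encodes a protein of actin filaments (0.194), and Nagk (0.199). For Tpm4 the nearest were Fam49a (0.143), Plxnb1 (0.212) and Tgfbr1, a receptor of transforming growth factor beta (0.226). Myl9 was nearest to Igf1r, the receptor of insulin-like growth factor (0.178), then Tmem55a and Gpr137b. Igf1r read 0.72, 0.80 and 0.60 FPKM in the CL rats against 0.78, 1.71 and 1.51 FPKM in the FL rats, so FL2 lay among the CL rats here too. Myh9 was nearest to Macf1, a linker of microtubules and actin (0.0618), Ptpn4 and Aaas, each of which varied by less than 2-fold over the 6 rats. The added 0.1 flattens the profile of Myh9, at 0.08 to 0.20 FPKM, far more than those of these neighbours. Its short distances thus depend on the pseudocount.

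The genes with a peak in FL5 had more distant neighbours. The nearest to Actg1 were Hist1h2bk (0.970), Gdf15 (1.03) and AABR07006263.1 (1.36), and the nearest to Actg2 were Igip (0.883), Rsad2 (0.930) and Kif20a (0.951). Rsad2, an interferon-induced gene, was also nearest to Cnn1 (0.588), before AABR07012583.3 and Ccdc38, and came next to SNORA21 for Tpm2 (0.688 and 0.660), before Spats2l. Rsad2 read 1.14, 0.83 and 0.88 FPKM in the CL rats against 0.91, 4.19 and 1.2 FPKM in the FL rats. FL5 was by far the highest rat, as it was for Actg1, Actg2, Cnn1 and Tpm2. For Rsad2 this follows from its choice by likeness to Actg2, Cnn1 and Tpm2.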

How the data were processed

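Liver RNA of 3 CL and 3 FL rats had been sequenced as 1 library each. The authors removed adapters and low-quality bases with FASTX-Toolkit 0.0.13, aligned the reads with TopHat2 and kept uniquely mapped reads. The authors deposited gene expression as FPKM with 2 decimals, and no scaling between rats is stated. The labels name GRCh38 as the genome, although the identifiers are those of rat genes, and no positions were taken from the table beyond chromosomes. The files hold no read counts, so the depth behind each value is unknown. A further 2 columns that match no sample were not used. Between pairs of rats, 0.990% to 2.87% of values above 0 were identical.

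FPKM are not counts, so limma (R 4.3.3, limma 3.58.1) with a mean-dependent prior was fitted to log2(FPKM + 0.1). Benjamini-Hochberg adjustment of limma's p-values covered the 14864 genes tested, and group values are means with SD. Ratios were compared with exact permutation tests (Python 3.11.15, numpy 2.4.6, pandas 2.3.3, scipy 1.17.1, matplotlib 3.10.9). Alternatives were pseudocounts of 1 and 0.01, no filter or a mean of at least 1 FPKM, median scaling (over 9201 genes), quantile normalization, leaving out each rat, dropping the limit on the fold change, and limma with a robust prior or without trend. Summing Myh9 with LOC100911597 was added after the data were seen.

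The 10 genes and the lists were chosen with earlier results of these data known. The genes named were chosen among these 10, up to 3 DEGs per list with the largest fold change in each direction, Acta2, Tagln, Des and Col1a1, members of the same gene families, and up to 3 of the nearest profiles of each gene. Some genes that met this rule are counted but not named, and other list genes were named after their values were seen. Where a symbol had 2 entries (Hprt1), the more abundant was used. Protein sequences were not analysed here.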

Additional observations from a re-analysis of the deposited data

How the results depend on the processing

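Cnn2 was a DEG under each alternative, and none of the 10 genes that could be tested was called lower under any of them (limma). All 10 were tested except at a mean of at least 1 FPKM, where 7 were. The number of the 10 called higher became 4 without a limit on the fold change and 1 to 4 with each rat left out (4 without FL2). For the 7 cytoskeleton lists, the number called higher became 7 with quantile normalization, 29 without a limit on the fold change and 7 to 20 with each rat left out (7 without CL7, 20 without FL2), and 1 was called lower with quantile normalization. Over all genes, those called higher numbered 1381, and became 462 with a pseudocount of 1, 854 at a mean of at least 1 FPKM, 826 with median scaling, 453 with quantile normalization, 2518 without a limit on the fold change and 740 to 1831 with each rat left out (740 without CL7, 745 without FL5 and 1831 without FL2). Those called lower numbered 139, and became 72 with a pseudocount of 1, 231 with quantile normalization, 288 without the limit and 81 to 160 with each rat left out (81 without CL6 or CL7). Genes called higher made up 90.9% of all calls, 82.0% with median scaling and 66.2% with quantile normalization. Actb no longer passed the p threshold with median scaling (log2 fold change 0.56) and ran from 0.73 to 0.88 with each rat left out. Tpm1 no longer passed it with median scaling (0.66), quantile normalization (0.67) and limma without trend (0.88), and ran from 0.72 to 1.13 with each rat left out. Tpm4 no longer passed it with a pseudocount of 1 (0.78), without a filter (0.82), with median scaling (0.60), quantile normalization (0.66) and limma without trend (0.82), and ran from 0.66 to 1.09. Myl9 ran from 0.56 to 1.16 with each rat left out and passed only without FL2. Myh9 reversed with quantile normalization (-0.12). With a pseudocount of 1, the difference in log2 ratio reversed for Actg2 over Actb (-0.26) and Cnn1 over Actg2 (-0.14). With each rat left out, it ran from 0.03 to 1.67 for Actg1 over Actb, 0.14 to 0.58 for Myl9 over Myh9, -0.99 to -0.31 for Cnn1 over Cnn2, -0.49 to 0.82 for Actg2 over Actb, -0.10 to 0.17 for Tpm1 over Tpm4, -0.56 to 0.24 for Tpm2 over Tpm4, -0.16 to 0.69 for Tpm1 over Tpm2 and -0.30 to 0.26 for Cnn1 over Actg2. Leaving out a rat leaves fewer samples, and in the other cases the cause was not tested. No paired analysis was possible because the rats of the groups were not matched. The pseudocount weighs on the genes of low level, since with a pseudocount of 1 the log2 fold change became 0.88 for Actg1, 0.52 for Actg2, 0.38 for Cnn1 and 0.09 for Myh9.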
